A study of Mus musculus with 278 samples.

Results

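Krt14-high keratinocytes were compared between the library series in which they were sequenced. The members were single mouse keratinocytes with Krt14 of at least 200 TPM (a read count corrected for gene length and expressed per 1000000 transcripts of the cell) and Col1a1 under 100 TPM. They were selected on these measured values, so that Krt14 and Col1a1 themselves are no finding. Of 278 labelled cells, 270 carried labels free of contradiction, and 52.2% of these were members. The library names fall into the series AG (names starting AG1neg or AG2pos) and GHA501A. In AG, 64 of 66 untreated and 59 of 64 treated cells were members (123 cells), and in GHA501A 8 of 71 untreated and 10 of 69 treated cells (18 cells). A further 8 AG cells also met the cutoffs but were left out, since their name and their stated treatment contradicted each other. All cells came from co-cultures of wild-type (WT) keratinocytes and K14ΔNβ-cateninER keratinocytes at 9 to 1, isolated from adult dorsal skin. In K14ΔNβ-cateninER cells the keratin 14 promoter drives a beta-catenin that lacks its N-terminus and is joined to the hormone-binding part of the oestrogen receptor. Treated co-cultures received 200 nM 4-hydroxy-tamoxifen (4OHT), which activates the fusion protein, and untreated co-cultures received DMSO, for 24 h. The cells of each series were captured on the C1 microfluidic chip, and transgenic cells were not told apart here. The labels give no animal, culture or date, so that culture, capture and library series cannot be told apart.

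Keratin 14 and its partner keratin 5 form the intermediate filaments of the basal layer of the epidermis. Basal keratinocytes adhere to the basement membrane through hemidesmosomes, which hold integrin alpha-6 beta-4, plectin, dystonin and collagen XVII, and to each other through desmosomes. Collagen I (Col1a1) is a product of fibroblasts. Reads are assigned to genes by their position, and a read that falls on more than 1 gene, or on more than 1 place in the genome, may be dropped, so that a level of 0 can mean that a gene was silent or that its reads were not counted.

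Among cells with low Col1a1 none had Krt14 near its cutoff, whereas Col1a1 values lay close to the cutoff on both sides. A further 6 AG and 8 GHA501A cells were above both cutoffs and were not members. The lowest Krt14 among members was 302 TPM in AG and 489 TPM in GHA501A, and the highest Krt14 outside the cutoff in a cell with low Col1a1 was 63.7 TPM in AG and 0 in GHA501A. The highest Col1a1 among members was 84.3 TPM in AG and 77.1 TPM in GHA501A, and the lowest Col1a1 outside it in a Krt14-high cell was 102.9 and 106.1 TPM. Most of the 140 labelled GHA501A cells (80.7%) had low Krt14 and high Col1a1, and no AG cell did. Krt14 and Col1a1 chose the cells and their levels are given as a description. Krt14 ran from 429 over a median of 5059 to 13080 TPM in untreated AG cells and from 302 over 6120 to 20420 TPM in treated AG cells. In GHA501A it ran from 718 over 1676 to 4376 TPM in untreated and from 489 over 3362 to 12670 TPM in treated cells, within the range of AG. Col1a1 was over 1 TPM in 38 of 123 AG members and in 18 of 18 GHA501A members, with set means of 8.75 and 4.84 TPM in AG and 11.3 and 33.9 TPM in GHA501A.

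Keratinocyte markers that the rule did not use were present in both series. Krt5 had set means of 1624 and 1915 TPM in untreated and treated AG members and of 919 and 1761 TPM in GHA501A members. It was over 1 TPM in 123 of 123 and 17 of 18 cells, and the log2 difference of -0.47 ± 0.47 (GHA501A minus AG, SE) did not pass the test. Krt17, a keratin of activated and follicular keratinocytes, had set means of 17570 and 20600 TPM in AG and 15850 and 16660 TPM in GHA501A. Of 14 basal keratinocyte genes other than Krt14, 13 were over 1 TPM in more than 50% of the GHA501A members of either treatment, against 9 in AG members and 5 in the other GHA501A cells. Of 17 fibroblast genes other than Col1a1, 5 and 8 were over 1 TPM in more than 50% of untreated and treated GHA501A members, against 4 in AG members of either treatment and 14 in the other GHA501A cells. Their summed level had a median of 682 and 519 TPM in untreated and treated GHA501A members, 757 and 808 TPM in AG members and 4290 TPM in the other GHA501A cells. The part of fibroblast RNA in the differences between the series was not tested. Of the endothelial list 2 genes were in the table, and both were at 0 in every GHA501A member. The median number of genes over 1 TPM was 6191 and 6429 in untreated and treated AG members and 6852 and 5819 in GHA501A members (exact permutation test over 4 sets, two-sided, p = 1, where 0.33 is the smallest p that 2 sets against 2 allow).

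GHA501A members held beta-catenin (Ctnnb1), CD44, osteopontin (Spp1), lactate dehydrogenase A (Ldha) and the ribosomal protein genes Rpl19 and Rps24 at 34.4 TPM or more in the median cell of each set, where the median cell of each AG set was at 5.57 TPM or less. AG members held Rnasek, Ube2v1, Adnp, smooth muscle actin (Acta2) and clusterin (Clu), which were low or at 0 in GHA501A members. Genes were tested with limma on log2(mean TPM + 1) of each set, 2 AG sets against 2 GHA501A sets, and called at an adjusted p below 0.05 and a log2 difference over 0.5. Of 11721 genes with TPM over 1 in more than 5 members, 1147 were called higher in GHA501A (9.79% of those tested) and 833 higher in AG (7.11%). A gene found in 1 series alone passed this filter through that series, so that the direction of its difference was fixed by the filter. Of the 1980 calls, 1816 exceeded a log2 difference of 2. The median difference over all genes tested was -0.27. The p-values measure only the spread between the sets of a series. They rest on the AG pair, since without the untreated or the treated AG set 0 genes were called by limma in either direction, with 2396 and 2583 genes at an unadjusted p under 0.05, against 3836 with all sets. With treatment as a block, 981 genes were called higher in GHA501A and 500 higher in AG.

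**Figure D1:**
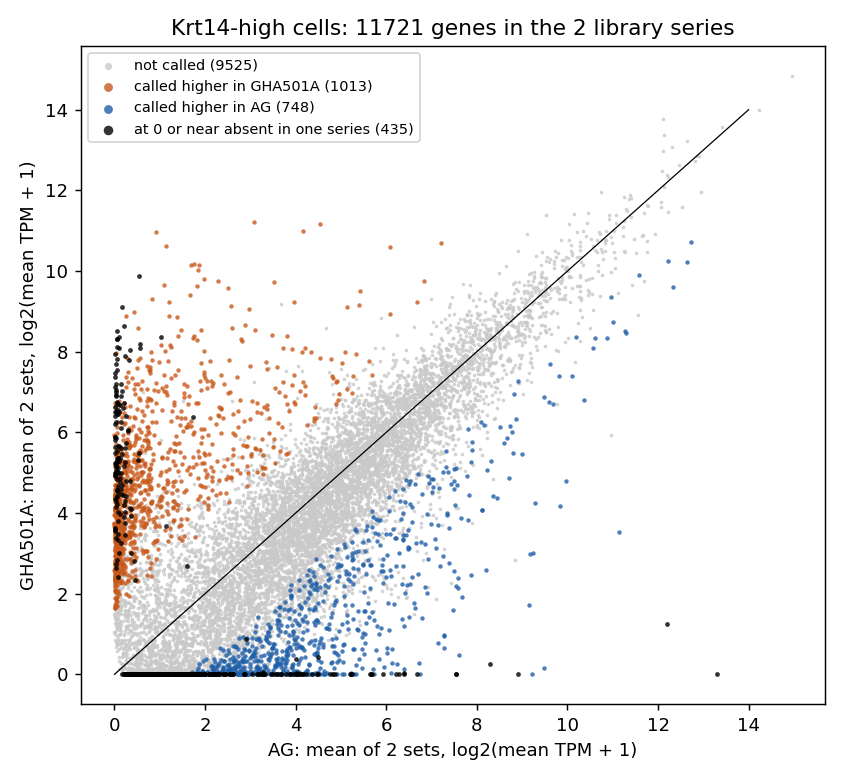
Each point is 1 of the 11721 genes tested, with the mean of the untreated and treated AG sets on the horizontal axis and of the GHA501A sets on the vertical axis, both as log2(mean TPM + 1) of Krt14-high cells. Calls higher in GHA501A (orange, 1013) are densest at the left edge, calls higher in AG (blue, 748) lie below the line of equality and are densest near the bottom, and the genes set apart or near absent in one series (black) lie mostly along the left edge or on the bottom.

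The sets of a series resembled each other more than the sets of a treatment did. The correlation across genes of log2(mean TPM + 1) was 0.96 between the AG sets and 0.851 between the GHA501A sets, and lay between 0.632 and 0.689 for sets of different series. These correlations are across genes, which are not independent replicates, and the GHA501A means rest on 8 and 10 cells.

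Genes at 0 in every cell of a series were set apart. In all 140 labelled GHA501A cells, whatever their type, 1394 genes were listed at 0, and no gene (0) was listed at 0 in all labelled AG cells. Most were rare in AG too, with 1229 of the 1394 over 1 TPM in under 10% of the labelled AG cells. In 33 of them more than 50% of the AG cells were above 1 TPM. Of the 1394 genes, 284 were tested and 74 were called. Among those found in most AG cells was B4galnt2, a glycosyltransferase gene, which ran from 29.8 over a median of 145.6 to 961 TPM in untreated and from 9.66 over 96.98 to 1584 TPM in treated AG members. Olfr1033, an olfactory receptor gene, had set means of 563 and 411 TPM in AG members and was over 1 TPM in 123 of 123 of them. Adnp, a neuroprotective homeobox gene, had set means of 78.3 and 46.2 TPM, and Mrpl53, a protein of the mitochondrial ribosome, 181.5 and 188.9 TPM. Ranbp3l, Rdh19, Sim1, Acnat1, Rapgef4 and Gm20172 were the other genes of this kind found in the largest share of AG cells, with set means from 7.82 (Rapgef4) to 49.5 TPM (Rdh19). The genes listed at 0 in GHA501A summed to a mean of 4230 TPM in untreated and 2868 TPM in treated AG members.

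Other genes were near absent rather than at 0, a class added after the data were seen: TPM over 1 in under 5% of the labelled cells of one series and in over 90% of the other. In AG, 1.19% of the genes tested were near absent. There were 21 genes near absent in GHA501A, of which 9 were at 0. The class itself fixes the direction of these genes, so that no test is given for them as a class. The genes near absent in AG summed to a mean of 28.7 and 15.1 TPM in untreated and treated AG members and to 12350 and 12760 TPM in GHA501A members. Leaving out the set-apart and near-absent genes from the count, 1013 of 11286 genes were called higher in GHA501A (8.98%) and 748 higher in AG (6.63%). This count still holds genes found in the members of 1 series alone, whose direction the filter fixed. Of all genes tested, 743 were at 0 in every GHA501A member and 9 in every AG member, set-apart and near-absent genes included.

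Beta-catenin, the protein that the transgene encodes in a truncated form, was among the genes near absent in AG. Ctnnb1 (chr9:120929216-120960507 of GRCm38, plus strand, protein coding) was at most 0.254 TPM in untreated and 0.419 TPM in treated AG members, with 0 of 123 cells over 1 TPM. In GHA501A members it ran from 20.7 over a median of 72.9 to 83.5 TPM in untreated and from 5.24 over 34.4 to 695 TPM in treated cells, so that the series did not overlap. The log2 difference was 6.49 ± 0.46 (SE, 2 sets against 2, limma, adjusted p = 0.00752), and the other GHA501A cells had a median of 57.04 TPM. Ctnnb1 passed the filter through GHA501A alone. Its direction was thus fixed by class and filter, and the p-value lends it no weight. In AG cells a silent Ctnnb1 and uncounted reads cannot be told apart by these values. Itgb4, the integrin beta-4 subunit of hemidesmosomes (chr11:115974709-116008412, plus strand), was listed at 0 in all 123 AG members and passed the filter through GHA501A alone. It was over 1 TPM in 13 of 18 GHA501A members, with a median of 7.4 TPM in untreated and 8.70 TPM in treated cells (adjusted p = 0.0408, or 0.0637 with no filter on low values). Eif4a1, a translation initiation helicase, was over 1 TPM in 1 of 123 AG and 18 of 18 GHA501A members, where its set means were 299 and 202 TPM. Tpm1, a tropomyosin, was over 1 TPM in 0 of 123 and 18 of 18 members.

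**Figure D2:**
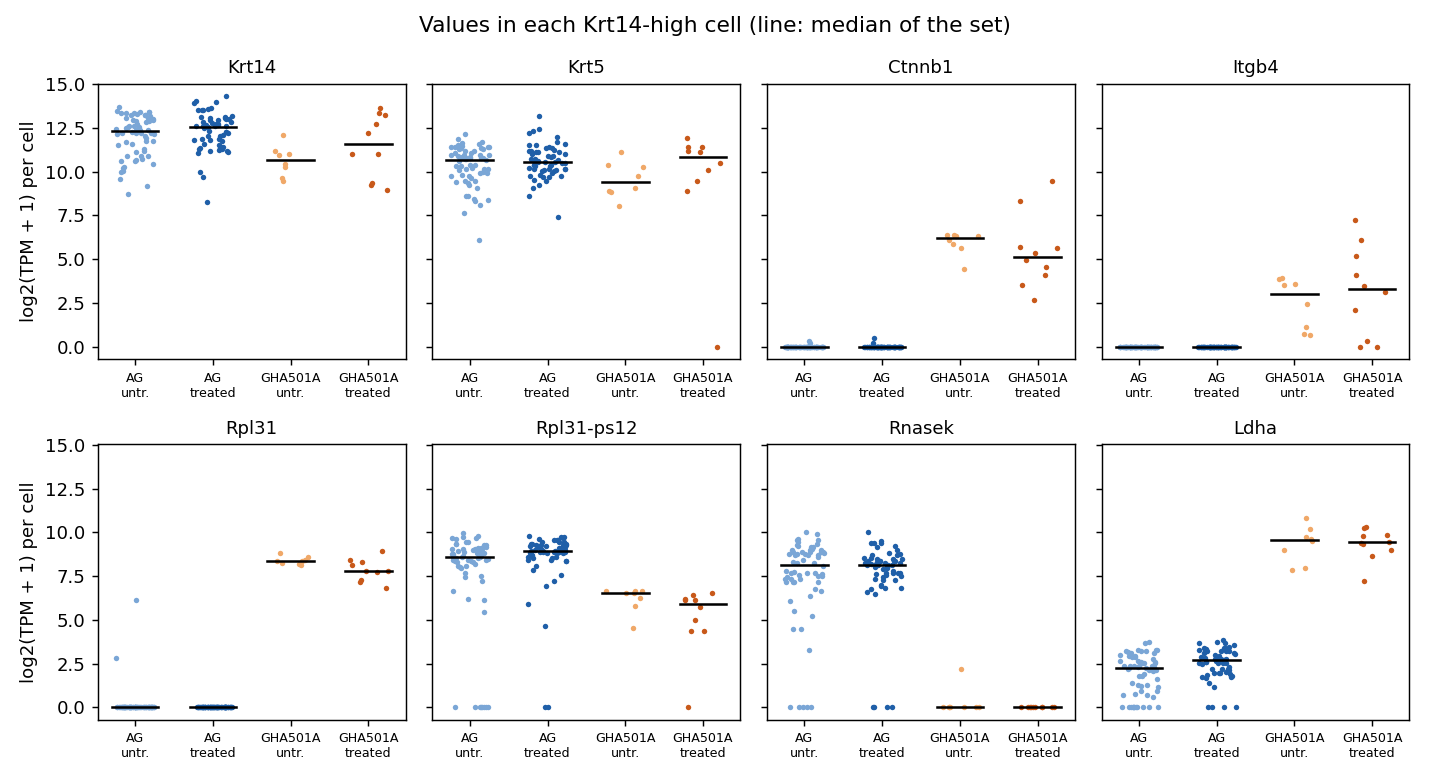
Each point is 1 Krt14-high cell and the line is the median of its set, with log2(TPM + 1) on the vertical axis, for 64 untreated and 59 treated AG cells and 8 untreated and 10 treated GHA501A cells. Krt14 and Krt5 overlap between the series, whereas Ctnnb1, Rpl31 and Ldha are high in GHA501A alone, Itgb4 is at 0 in AG, and Rnasek and Rpl31-ps12 are higher in AG.

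Outside the lists of known function, the 12 genes that differed most in each direction among those found in at least 50% of the cells of the higher series were named. Those higher in GHA501A were Set, Spag7, Srsf7, Arf1, Capg, Hnrnpa1, Ptp4a2, Spin1, Btf3, Eif5a, Ywhaz and Cd63. Their log2 differences ran from 8.13 (Cd63) to 9.49 (Set). Set, a histone chaperone, had a median of 0 TPM in both AG sets and of 2700 and 648 TPM in untreated and treated GHA501A members, and the series did not overlap. Those higher in AG were Gm20594, Wfdc18, Omd, Zfp781, Rnasek, Wdr92, Ccdc82, Ube2v1, Ldlrad2, Wdr74, Fcrl6 and Vps25. Gm20594 was at 0 in all 18 GHA501A members and ran from 375 over a median of 1090 to 327300 TPM in untreated AG members. The sum over all genes of a cell is 1000000 TPM. Wfdc18, a gene of the whey acidic protein family, had set means of 3997 and 5483 TPM in AG, and was over 1 TPM in 1 of 18 GHA501A members. Omd (osteomodulin), a proteoglycan of mineralised matrix, ran from 47.5 to 4764 TPM over AG members, and was at most 1.88 TPM in GHA501A members.

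In 2 of 3 pairs, a processed pseudogene (a reverse-transcribed copy of a messenger RNA in the genome) and its parent gene differed in opposite directions. Rpl31 encodes a protein of the large ribosomal subunit, and Hnrnpa1 encodes a splicing factor. The first 60 bases of the longest coding exon of Rpl31 were set beside the best match in its pseudogene, to show how alike the templates were (GENCODE M21 transcripts, GRCm38).
Rpl31 (chr1:39370954-39371013, plus strand): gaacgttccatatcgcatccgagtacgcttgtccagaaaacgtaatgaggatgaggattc
Rpl31-ps12 (chr16:16819831-16819890, minus strand): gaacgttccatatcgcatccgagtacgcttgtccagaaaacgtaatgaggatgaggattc

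The pair had 0 mismatches in this stretch, so that no base is in capitals. Rpl31 was over 1 TPM in 2 of 123 AG members and ran from 281 over a median of 332 to 447 TPM in untreated and from 110 over 225 to 489 TPM in treated GHA501A members. Its pseudogene Rpl31-ps12 had a median of 384 and 491 TPM in untreated and treated AG members and of 92.4 and 59.99 TPM in GHA501A members. The parent was higher in GHA501A by 7.62 ± 0.53 (log2, SE, limma adjusted p = 0.00752) and the pseudogene lower by 2.77 ± 0.41 (adjusted p = 0.024, or 0.0736 with the mean of log2(TPM + 1) over cells). Rpl31 is of the class near absent in AG, which fixes its direction, so that its p-value lends it no weight. Hnrnpa1 had a median of 0 TPM in both AG sets and of 1779 and 681 TPM in untreated and treated GHA501A members. Hnrnpa1l2-ps2 had a median of 188.6 and 229.3 TPM in AG and of 34.1 and 7.78 TPM in GHA501A. The pair Rpl34 and Rpl34-ps1 did not move apart, with log2 differences of 7.07 ± 0.40 and 6.63 ± 0.38, both called higher in GHA501A. Levels of genes and of near-identical copies are uncertain, since the authors discarded reads that mapped to several places.

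Genes higher in AG more often shared their exons with another annotated gene. In GENCODE M21, 1.91% of the genes tested had over 20% of their exonic bases inside exons of another gene on the same strand. Among genes called higher in AG it was 7.12%, among the 67 called higher in AG by a log2 difference over 5 it was 19.4%, and among genes called higher in GHA501A 1.05%. A share of 31-base words over 20% that also occur in transcripts of another gene was found for 13.4% of the genes tested, 24.4% of those called higher in AG and 40.3% of the 67 genes. Rnasek (ribonuclease kappa, chr11:70238124-70239842, minus strand) shared 67.7% of its exonic bases with the gene Gm21988. It had a median of 283 and 281 TPM in untreated and treated AG members and was over 1 TPM in 1 of 18 GHA501A members. Adnp shared 82.1% with Gm20716, Ube2v1 61.5% with Gm20431, Galnt2 90% with Gm20388 and Mrpl53 87.97% with Gm42688. Zbed6, whose bases all lie in exons of Zc3h11a (100%), was listed at 0 in every GHA501A member and had set means of 44.5 and 30.9 TPM in AG members. Zc3h11a itself was over 1 TPM in 123 of 123 AG and 12 of 18 GHA501A members, with a log2 difference of -2.50 ± 0.38 (adjusted p = 0.0256).

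Genes higher in GHA501A more often had several annotated transcripts. In the basic set of GENCODE M21, 88.3% of the genes called higher in GHA501A had more than 1 transcript, against 55.5% of all genes tested and 43.7% of those called higher in AG. The median share of exonic bases that belonged to 1 transcript alone was 25.4%, 74.9% and 100% in the same order. Of the 5169 genes with 1 transcript, 2.57% were called higher in GHA501A and 9.04% higher in AG. Of the 685 genes with 5 or more transcripts, 31.7% were called higher in GHA501A and 2.04% higher in AG. Between these, the share called higher in GHA501A was 10.6% with 2, 15.7% with 3 and 23.6% with 4 transcripts, and the median difference over the genes ran from -0.47 with 1 to 0.71 with 5 or more. These are shares of genes, given as a description. The annotation that the authors counted on may differ from GENCODE M21, and whether the reads of both series were counted in the same way was not tested.

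**Figure D3:**
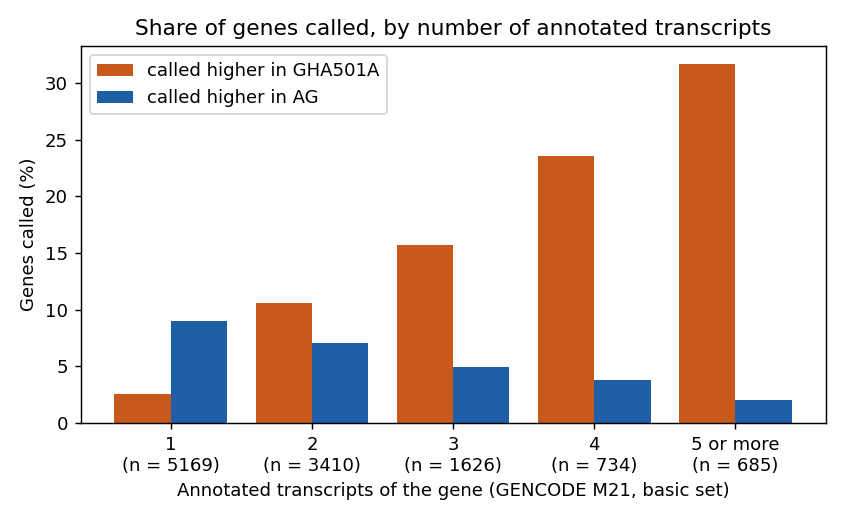
Bars give the percentage of genes called higher in GHA501A (orange) and higher in AG (blue) among Krt14-high cells, by the number of transcripts of the gene in the basic GENCODE M21 set. The first rises from 2.57% to 31.7% and the second falls from 9.04% to 2.04% between genes with 1 and with 5 or more transcripts.

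Genes with 1 transcript and at most 20% of shared exonic bases and words were also fitted on their own, without set-apart and near-absent genes, a selection chosen after the data were seen. Of the 1980 calls, 396 were among these 4244 genes. Their log2 differences do not change in this fit, and with errors and adjustment from these genes alone 37 of the 396 were called higher in GHA501A (0.872% of the 4244) and 95 higher in AG (2.24%). Those higher in AG included actins of muscle, Acta2 and Acta1, at set means of 217.5 and 143.9 TPM for Acta2 in AG against 2.46 and 1.62 TPM in GHA501A members (log2 difference -5.89 ± 0.41, adjusted p = 0.0383 in this fit). Acta2 was over 1 TPM in 88.6% of AG and 8 of 18 GHA501A members, and the cells overlapped. Clusterin (Clu), a secreted chaperone, had a median of 210 and 232 TPM in untreated and treated AG members and of 0 and 0.513 TPM in GHA501A members (-5.05 ± 0.39, adjusted p = 0.0383). Krt42, a type I keratin, was over 1 TPM in 88.6% of AG and 4 of 18 GHA501A members (-3.31 ± 0.34, adjusted p = 0.0464), but with 10 AG cells per treatment matched on Krt14 it was -1.44 (adjusted p = 0.391). Sgpp2, a sphingosine phosphatase, did not overlap between the series, with at least 3.16 TPM in AG and at most 1.68 TPM in GHA501A members. Ldlrad2, Fcrl6, Mn1, Tspan15 and Nuak1 were also among the largest of these differences. Those higher in GHA501A were led by Spin1, a histone methylation reader (8.29 ± 0.75, adjusted p = 0.0383), which was over 1 TPM in 34 of 123 and 18 of 18 members. Ssrp1, a subunit of the FACT histone chaperone, was over 1 TPM in 5 of 123 and 18 of 18 members. Cd53, a tetraspanin of leukocytes, was over 1 TPM in 7 of 123 and 14 of 18 members, with set means of 183.4 and 243.4 TPM in GHA501A. Ints9, 1700022I11Rik, Cnp, Tmem170 and Il17rc followed.

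Of 15 genes of the hemidesmosome and of basal keratinocytes that were tested, Krt14 among them, 5 were called higher in GHA501A (33.3%, against 9.79% of all genes) and 0 higher in AG (against 7.11%). The median difference was 0.33, against -0.27 over all genes. The 5 genes were Cd44, the hyaluronan receptor (6.93 ± 0.51, adjusted p = 0.00766), Plec (plectin, 4.95 ± 0.36), Itgb4 (listed at 0 in AG, as above), Dst (dystonin, 3.12 ± 0.39) and Cdh3 (P-cadherin, 2.41 ± 0.49, adjusted p = 0.0481). Plec is of the class near absent in AG, which fixes its direction, and that of Itgb4 was fixed by the filter. Of the 5 genes, Cd44, Plec, Itgb4 and Dst have 6 to 13 annotated transcripts and Cdh3 has 1. Among all genes with 5 or more transcripts, 31.7% were called higher in GHA501A. In the fit of genes with 1 transcript Cdh3 kept its log2 difference of 2.41, with a limma adjusted p of 0.101. Cd44 was at most 49.9 TPM in untreated and 2.47 TPM in treated AG members and at least 71.9 TPM in GHA501A members. The other hemidesmosome genes did not pass the test. Itga6 (integrin alpha-6) had set means of 95.1 and 75.1 TPM in AG and 81.5 and 223 TPM in GHA501A members, and Col17a1 217.7 and 118.7 TPM against 110.5 and 372.3 TPM.

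Lists of differentiation and cell junction genes had 1 or 2 calls in each direction, at shares that are beside 9.79% higher in GHA501A and 7.11% higher in AG over all genes no result about the lists. The shares were 6.67% and 13.3% in the suprabasal and cornified envelope list and 10% and 5% among desmosome and junction genes. In the first, Grhl3, a transcription factor of barrier formation, was higher in GHA501A (1.91 ± 0.33), whereas Tgm3 (transglutaminase 3, over 1 TPM in 39 of 123 AG members and listed at 0 in every GHA501A member) and Cst6 (cystatin M/E, -1.69 ± 0.33) were higher in AG, out of 15 tested. Tgm3 passed the filter through AG alone. Sfn (14-3-3 sigma) had set means of 1140 and 1252 TPM in AG and 1129 and 1508 TPM in GHA501A members. Sprr1a, a cornified envelope precursor, was at 2783 and 3242 TPM against 96.4 and 2414 TPM, and was not called (-2.63 ± 1.67). Of 10 stress and simple epithelium keratins, Krt79 was over 1 TPM in 16 of 123 AG members and listed at 0 in all 18 GHA501A members, having passed the filter through AG alone, and Krt6a was not called (0.10 ± 0.53). Of 20 desmosome and junction genes, Tjp1 (ZO-1, 4.61 ± 0.36) and Pkp3 (plakophilin 3, 3.56 ± 0.39) were higher in GHA501A, and Pkp1 (plakophilin 1) was higher in AG, at 103.4 and 80.2 TPM against 13.1 and 23.5 TPM. The limma call of Pkp1 (adjusted p = 0.0428) was lost with the treatment as a block (adjusted p = 0.0785), 1 of 12 named genes that lost their call there. Gja1 (connexin 43), at 4727 and 4788 against 2962 and 2731 TPM, and Perp, at 1297 and 938 against 701 and 837 TPM, were not called. Of 6 hair follicle genes, Cd34, a bulge marker, was called higher in GHA501A (16.7% of the list, 4.79 ± 0.34), and Msx2 and Krt75 higher in AG (33.3%). Sox9 (-0.84), Lgr5 (-0.97) and Lrig1 (0.46) were not called. Msx2 and Krt75 were listed at 0 in every GHA501A member. Both passed the filter through AG alone, where Msx2 had set means of 11.3 and 7.07 TPM and Krt75 of 4.49 and 8.70 TPM.

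Markers of other cell types are given gene by gene, beside shares of 9.79% and 7.11% over all genes. Of 15 fibroblast genes, 0 were called by limma in either direction, with a median of -0.06. Col1a1, which chose the cells, is among the 15. Sparc had set means of 711 and 752 TPM in AG and 634 and 830 TPM in GHA501A members. Among 5 myofibroblast genes Acta2 was the 1 called, higher in AG (20%), and the summed list had a median of 242.8 and 190.7 TPM in AG against 38.4 and 86.8 TPM in GHA501A members. Of 2 melanocyte genes, Tyr (tyrosinase) was higher in AG at 45.03 and 28.3 TPM against 3.12 and 5.10 TPM, and of 2 immune genes H2-Ab1 was over 1 TPM in 10 of 123 AG and 0 of 18 GHA501A members, having passed the filter through AG alone. Shares of lists of 2 genes carry no weight. Of 11 genes of the EMT and mesenchymal list, Spp1, of the class near absent in AG that fixes its direction, was higher in GHA501A (8.25 ± 0.56). It was over 1 TPM in 3 of 123 AG and 18 of 18 GHA501A members, with a median of 1611 TPM in the other GHA501A cells. Tnc (tenascin C, -1.78 ± 0.34) was higher in AG.

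Of 24 S-phase genes, Ccne2 (cyclin E2, 3.89 ± 0.41) was higher in GHA501A, and of 26 G2/M genes Kif20a, a mitotic kinesin (6.31 ± 0.42), Nusap1 (3.43 ± 0.59) and Birc5 (survivin, 2.71 ± 0.47) were higher in GHA501A. These shares (4.17% and 11.5%) lie below and near the 9.79% of all genes and are no result about the lists. The median differences were 0.77 and 0.47, against -0.27 over all genes. The summed S-phase list had a median of 621 and 490 TPM in untreated and treated AG members and of 1848 and 1877 TPM in GHA501A members. For the G2/M list it was 402 and 437 TPM against 3112 and 2053 TPM. Cells of the series overlapped in both sums, and these differences were not tested. Each of the 4 called genes has 2 or 3 annotated transcripts. Replication-dependent histone genes, whose transcripts mostly carry no poly(A) tail, had 12 of 53 called higher in AG (22.6%, against 7.11% of all genes) and 0 higher in GHA501A, with a median of -1.31. The set means of AG include cells of extreme level. The summed list had a median of 1002 and 895 TPM in untreated and treated AG members, with highest cells at 59430 and 125000 TPM. In GHA501A members its median was 604 and 328 TPM. Hist1h1c had set means of 85.6 and 49.3 TPM in AG and 2.41 and 2.41 TPM in GHA501A members, and Hist1h2bc 382 and 276 against 21.2 and 19.7 TPM.

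Lists of immediate early and stress genes hold 12 to 18 tested genes each, so that 1 call is 5.56% to 8.33% of a list, near the 9.79% and 7.11% of all genes, and single calls are no result about a list. The median differences of these lists lay on both sides of the -0.27 of all genes. They ran from -1.335 (YAP target and contractility) and -1.21 (AP-1 and immediate early) to 0.46 (redox) and 2.55 (chemokines and cytokines). Of 18 AP-1 and immediate early genes, Egr1 was higher in AG (-4.04 ± 0.37), at set means of 303 and 249 TPM against 13.3 and 18.7 TPM. Klf6 was at 1496 and 876 TPM against 287.1 and 158.4 TPM and did not pass the test (adjusted p = 0.0534). Of 14 chaperone genes, Hspa5, the chaperone of the endoplasmic reticulum, was over 1 TPM in 11 of 123 and 18 of 18 members (8.61 ± 0.37), and Hspa8, the constitutive cytosolic chaperone, was higher in AG at 1442 and 1583 TPM against 277 and 263 TPM. Txnrd1 (thioredoxin reductase, 5.68 ± 0.38), Gclm (3.38 ± 0.49) and Slc7a11 (3.05 ± 0.32) were the 3 of 16 redox genes called, all higher in GHA501A (18.8%). All 3 have more than 1 annotated transcript. Redox genes that were not called lay on both sides of 0, such as Hmox1 (-1.93), Mt1 (-1.655) and Sod1 (1.23). Of 13 interferon response genes Usp18 was higher in AG, and of 14 chemokines and cytokines Csf2 was called higher in GHA501A, on 2 of 18 cells against 4 of 123. The summed chemokine and cytokine list had a median of 351.5 and 279.5 TPM in untreated and treated AG members and of 1876 and 3808 TPM in GHA501A members. Cells of the series overlapped in this sum, and the difference was not tested. Of 12 p53 targets, Cdkn1a (p21, 4.21 ± 0.58) was higher in GHA501A, and Sesn2 (-3.50 ± 0.37) and Gadd45a (-1.84 ± 0.35) were higher in AG. Of 13 YAP target and contractility genes, Tpm1 was higher in GHA501A, and Acta2, Actg1 and Ankrd1 were higher in AG (23.1%). Tpm1 is of the class near absent in AG, which fixes its direction. Actg1, the cytoplasmic gamma-actin, had set means of 6560 and 7048 TPM against 1792 and 1605 TPM.

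Of 11 genes tested in the list of targets and feedback genes, Ctnnb1 itself, its direction fixed as given above, was the 1 gene called. Axin2, the feedback inhibitor, had set means of 1.05 and 1.02 TPM in AG and was at 0 in GHA501A members (not called). Ccnd1 (cyclin D1) was at 145.5 and 122.6 TPM in AG and 246 and 212 TPM in GHA501A (0.77 ± 0.34, adjusted p = 0.214). Lef1 was over 1 TPM in 1 of 123 AG and 1 of 18 GHA501A members and was not tested.

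Genes of neighbouring steps of glycolysis were called in opposite directions. Of 14 genes, Aldoa (aldolase, 7.79 ± 0.36), Ldha (7.08 ± 0.36), Eno1 (enolase, 3.98 ± 0.47) and Pkm (pyruvate kinase, 3.49 ± 0.39) were higher in GHA501A (28.6%, against 9.79% of all genes), and Gapdh was higher in AG (-2.69 ± 0.35). Ldha had a median of 3.81 and 5.57 TPM in untreated and treated AG members and of 767 and 686 TPM in GHA501A members, without overlap. Gapdh had set means of 968 and 1246 TPM in AG, and no GHA501A member was over 373.9 TPM. Pgam1 and Pgk1, the enzymes between these steps, were at 2953 and 3430 and at 2317 and 3229 TPM in AG, against 2141 and 1610 and 916 and 713 TPM in GHA501A, and were not called (Pgk1 adjusted p = 0.0555). The 4 genes higher in GHA501A have 2 to 5 annotated transcripts, Gapdh has 3, and Pgam1 and Pgk1 have 1.

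The proteins of the cytosolic ribosome, which enter the ribosome in equal numbers, were called in both directions. Of 77 genes 8 were higher in GHA501A (10.4%, near the 9.79% of all genes) and 12 higher in AG (15.6%, against 7.11%), with a median of -0.03 and summed levels of 87330 and 106200 TPM in AG and 88950 and 82000 TPM in GHA501A members (exact permutation test, two-sided, p = 0.667). Rpl19 (10.06 ± 0.33), Rps24 (9.33 ± 0.32), Fau (8.42 ± 0.38) and Rps27a (7.83 ± 0.34) were near 0 to a few TPM in AG and at 837 TPM or more in GHA501A set means. Rps24 is of the class near absent in AG, which fixes its direction. All 8 genes higher in GHA501A have more than 1 annotated transcript. Among the 12 higher in AG were Rpl13a (-3.98 ± 0.34) and Rpl24 (-3.57 ± 0.44), which share 35.4% and 46.99% of their exonic bases with another gene on the same strand. Rpl4 and Rpl14, the members with the highest levels, were not called. Mitochondrial ribosomal proteins gave 5 calls higher in GHA501A and 1 (Mrpl53) higher in AG out of 77, and nuclear-encoded genes of oxidative phosphorylation 3 (Atp5c1, Cox7a2l, Atp5g1) and 2 out of 86, shares below those of all genes. Of 332 predicted genes (Gm and Rik symbols), 12 were higher in GHA501A (3.61%) and 53 higher in AG (15.96%).

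**Figure D4:**
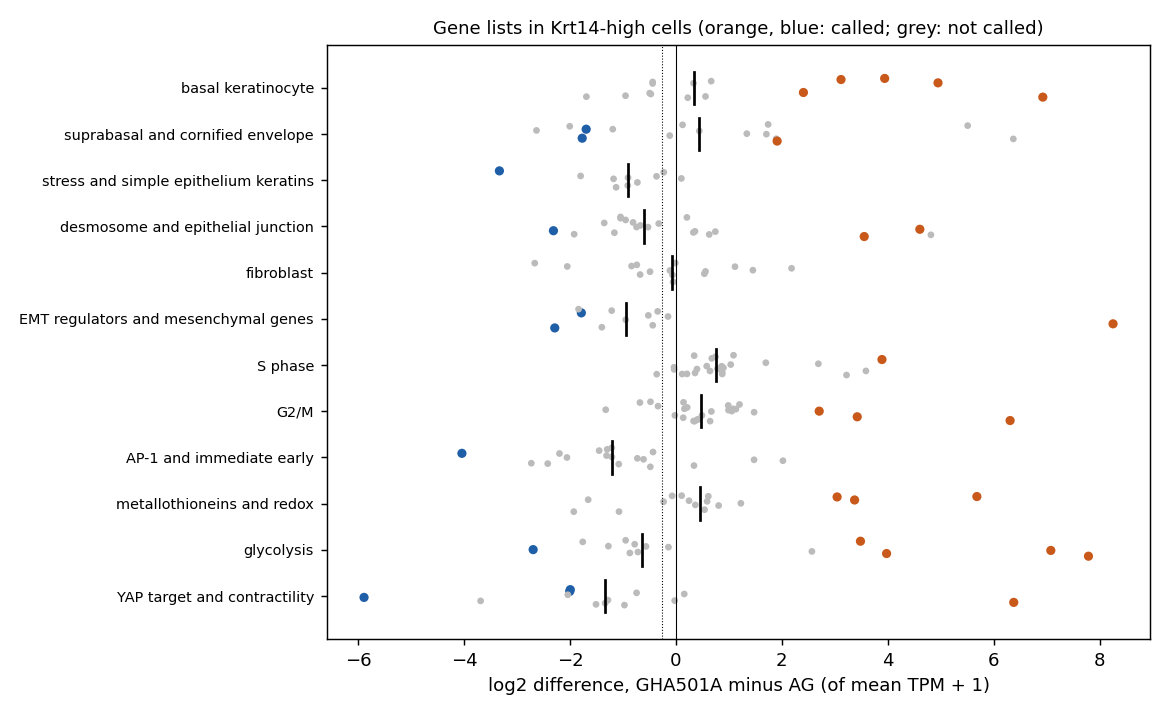
Each point is 1 gene of a list, placed by its log2 difference (GHA501A minus AG, of mean TPM + 1) in Krt14-high cells, with calls in orange or blue, the median of a list as a bar and the median over all genes (-0.27) as a dotted line. Called genes of the same list lie on both sides for glycolysis, YAP targets and junctions, among others, while the basal genes called all lie to the right. Among the latter, the direction of Plec and Itgb4 was fixed by class or filter.

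The difference between the series is given for each treatment as a description. The error of the fit is the spread between the untreated and treated sets of a series, so that called genes differ little between the treatments by construction. For Cd44 it was 6.35 in untreated and 7.51 in treated cells, for Aldoa 8.08 and 7.50, and for Acta2 -5.98 and -5.79. For Col17a1, which was not called, it was -0.97 and 1.64. For Krt14, which chose the cells and is no finding, it was -1.55 and -0.35.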

How the data were processed

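Single cells were captured on the C1 system and their cDNA was made with the SMART-Seq v4 chemistry. Per the labels and the study's methods, the authors checked reads with FastQC, trimmed them with cutadapt, aligned them to GRCm38 with TopHat, discarded reads mapped to several places and counted reads per gene with featureCounts. The annotation release, the strand setting and whether both series were counted in the same run are not given in the sources used here. The authors deposited TPM, which sum to 1000000 in every cell. TPM hold no read counts per gene or cell, so that no counting interval was computed. Columns were tied to samples by the library name in the labels, 16 columns without a label were not used, and 8 cells whose library name and treatment label disagreed were left out.

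Cells are not replicates. The TPM of member cells was averaged in 4 sets (AG untreated, AG treated, GHA501A untreated, GHA501A treated), and 2 sets were compared with 2 on log2(mean TPM + 1, a pseudocount of 1) with limma 3.58.1 in R 4.3.3, two-sided, with Benjamini-Hochberg adjustment over genes with TPM over 1 in more than 5 members. Differences are on this scale and understate the change of low genes. The members and gene lists were chosen with earlier results of these data known. Genes were named by a rule: of each list up to 4 called genes with the largest difference and the 2 with the highest level, 12 largest outside the lists in each direction, and 10 set-apart genes. Partners in overlaps and pseudogene pairs, Clu, Krt42, Cdh3, Gapdh, Rpl13a, Rpl24, Itga6, Col17a1, Axin2 and Lef1, the leading genes with 1 transcript and Eif4a1 were added after their values were seen. Gene positions, overlaps, transcript numbers and sequences came from GENCODE M21 (GRCm38), in which 99.2% of the genes tested were found by symbol. In a simulation on these 4 sets with 200 of 11721 genes changed, the test recovered 0% of changes of 2, 34% of changes of 4 and 73% of changes of 8 on the log2 scale. The data held more differing genes, with 3836 at an unadjusted limma p under 0.05, so that the adjustment was stricter in the simulation. These shares are therefore not the recovery of the test in the data. Some results are not reported here. Alternatives were other pseudocounts, filters, scalings, cutoffs, a treatment block and leaving out each set. Python 3.11.15, numpy 2.4.6, pandas 2.3.3 and matplotlib 3.10.9 were used.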

Additional observations from a re-analysis of the deposited data

Results flagged for a closer look

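A single outlying cell was looked for in 20 checks, made of several measures in the untreated and treated GHA501A sets, and 3 were marked. The AG sets, with more cells, were not examined. The nominal rate of 1 in 20 assumes independent checks on normal values, whereas these checks share cells and normality was not tested. Krt14, and Col1a1 in the fibroblast list, also chose the cells. Krt14 in the highest of the 8 untreated GHA501A members was 4376 TPM, with the next at 2340 TPM, a gap of 0.557 of the range. The summed level of suprabasal and cornified envelope genes in the highest of the 10 treated GHA501A members was 41100 TPM, with the next at 17110 TPM, a gap of 0.584 of the range. The summed level of fibroblast genes in the highest of the 10 treated GHA501A members was 3123 TPM, with the next at 1681 TPM, a gap of 0.502 of the range.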

How the results depend on the processing

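The shared numbers in the names are cell numbers, so that a pairing was possible by treatment alone. With treatment as the replicate block, 981 genes were called higher in GHA501A and 500 higher in AG, against 1147 and 833 without the block. Of the named genes, 12 lost their call with the block. Leaving out each set in turn gave 0 to 1677 genes higher in GHA501A and 0 to 1310 higher in AG, with 0 calls by limma without either AG set, where every named call was lost. With TPM over 1 required in at least 10% of the members of each series, 404 and 330 genes were called of 8816 tested. With Col1a1 under 10 TPM, which left 1 treated GHA501A cell, 0 and 0 were called by limma, with 2499 at an unadjusted p under 0.05, and 20 of the 1810 reported calls tested there had the other sign. Under 2 settings chosen after seeing the data, 10 AG cells per treatment matched on Krt14 gave 1007 and 426 calls, and genes with 1 transcript and little shared sequence gave 37 and 95 of 4244 tested. Defined over member cells alone, 2465 genes were at 0 in GHA501A and 18 in AG, and 246 genes were over 1 TPM in no labelled AG cell. The cause of these changes was not tested beyond the fewer cells and genes named. TPM hold no read counts, so that no upper limit was computed for a level of 0.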
